A study of Arabidopsis thaliana with 4 samples.

Results

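The 28 genes described here encode expansins and xyloglucan endotransglucosylase/hydrolases, proteins of 2 families known for loosening the plant cell wall. They were taken by name: every probe set that the platform's table matches to 1 gene whose symbol begins with EXPA, EXPB, EXLA, EXLB, XTH or EXGT followed by a number or a hyphen. They are 28 of 13350 genes named alone on the array, and each had a single probe set. There were 18 expansins, of which 10 were EXPA, 4 EXPB, 3 EXLA and 1 EXLB, and 10 XTH genes, among them EXGT-A3, which carries an older name of the same family. A pair of probe sets that each match 2 EXPA genes (EXPA22 with EXP26 and EXPA23 with EXPA25) was left out. TCH4, the XTH gene that the study followed in roots by RT-PCR and qRT-PCR, is not among the 28 and was not analysed here. The paper selected TCH4 from these same arrays, with altered expression in at least 1 sample among its criteria. It reports TCH4 as higher in plants overexpressing AtRALF1, both in the array data and by RT-PCR and qRT-PCR. That array result for TCH4 was not tested here.

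The samples were whole Arabidopsis thaliana seedlings, 1 week old. After 48 h of cold treatment they had grown at 24 °C under 16 h of light a day on upright plates. Each of 2 control samples combined RNA of the wild type and of plants carrying the empty pART27 vector in equal parts. Each of 2 35S:AtRALF1 samples combined RNA of a pair of lines, 35S:AtRALF1-1-I and 35S:AtRALF1-1-II, in which the 35S promoter, active in nearly all plant tissues, drives the gene of the RALF1 peptide. Each group was sampled as a first and a second repeat, and nothing states whether these are separate plantings or separate hybridizations of the same RNA, so p-values here reflect no more than the spread among these samples, and that spread may be technical. The measure was the linear signal intensity of a probe set, from 1 Affymetrix array per sample, and the number of arrays limits the precision. Array medians lay between 42.0 and 50.5. The level of the AtRALF1 transcript itself was not analysed here. In whole seedlings, fewer cells of a type and less RNA per cell cannot be told apart.

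A growing plant cell is held in by cellulose microfibrils set in a matrix of xyloglucan and pectin, and it enlarges when this wall yields to turgor. Alpha-expansins (EXPA) let the wall creep at acid pH without cutting its polymers, and beta-expansins (EXPB) are their second branch, known above all from grasses. EXLA and EXLB proteins resemble expansins in sequence, but no wall-loosening activity is established for them. XTH enzymes cut xyloglucan chains and rejoin or hydrolyse the ends. RALF peptides raise the pH outside the cell and inhibit elongation, which is why the genes for wall-loosening proteins are of interest in plants that overexpress 1 of them.

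Signals of the 28 genes ran from background to well above the array medians. Of the genes, 16 were bright, with a mean over the 4 arrays at or above 46.8, the average of the array medians. A further 3 were dim, and 9 lay at or under 31.9, the average of the arrays' 40th percentiles, too low to be separated from background. XTH32 and EXGT-A3 had the strongest signals of the XTH genes, with means of 1144 and 1009, and EXPA8 the strongest of the expansins, with 315.4. EXPA21, EXPA24 and XTH26 had no signal above 6.4 in any array. Probe sets bind their targets with different strength, so brightness describes how well a gene was measured and not the order of transcript levels.

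**Figure D1:**
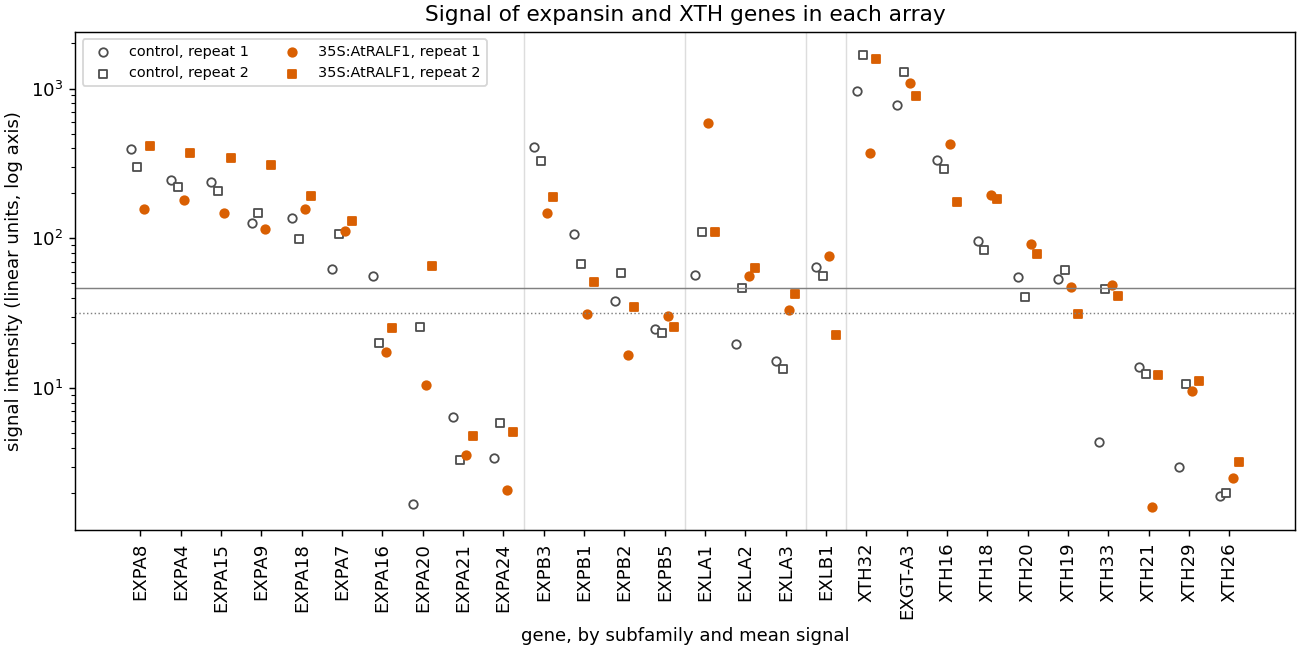
Signal intensity (log axis) of each gene in each of the 4 arrays, with genes ordered by subfamily and by mean signal; open symbols are control, filled symbols 35S:AtRALF1, circles repeat 1 and squares repeat 2, and the solid and dotted lines mark 46.8 and 31.9. XTH32 and EXGT-A3 lie highest, and 9 genes lie at or under the dotted line on average.

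No gene of either family passed the test. Fold changes are given as log2 of 35S:AtRALF1 over control after 16 was added to each signal, which understates changes of dim genes. At an adjusted p under 0.05 limma called 0 of the 28 genes, as it called 0% of the 22746 probe sets tested, and the lowest adjusted p among the 28 was 0.987. Without adjustment, p was under 0.05 for 2 higher genes (XTH18 and EXLA3) and 1 lower gene (EXPB3), where 2.01% of all probe sets were higher and 2.29% lower. For 2 arrays in each group the smallest p of an exact permutation test is 0.333. The values that follow are therefore descriptions of these 4 arrays.

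As a whole the families were split: 15 log2 fold changes were positive and 13 negative, with a median of 0.05, against a median of -0.04 over all probe sets. The 4 arrays nevertheless separated the groups for 13 genes. In 8 both 35S:AtRALF1 arrays exceeded both control arrays, 28.6% of the 28 against 13.3% of all probe sets. In 5 both lay below, 17.9% against 18.1%. Of these 13 genes, EXLA3, EXPB5 and XTH26 (higher) and XTH21 (lower) lay on average at the level of background. A difference of at least 1.5-fold in both repeats, on the scale of signal plus 16, was seen upward for 3 genes (XTH18, XTH20 and EXLA3), where 1.6% of probe sets met that rule, and downward for 1 (EXPB3), where 2.1% did. The median log2 fold change was -0.75 for the 4 EXPB genes, 0.10 for the 10 EXPA genes, 0.75 for the 4 EXLA and EXLB genes and 0.02 for the 10 XTH genes. These medians were compared after the values had been seen and have no test, and single arrays moved them. Without 35S:AtRALF1 replicate 1 they were -0.46 for EXPB, 0.59 for EXPA and 0.56 for EXLA and EXLB, and without 35S:AtRALF1 replicate 2 they were -1.03, -0.20 and 0.66 in that order. The EXPA median thus changed sign with the array left out and was 0.30 over the bright EXPA genes, and the order of EXPA and EXLA with EXLB was not kept. That of the XTH genes lay between -0.04 and 0.20 with an array left out and was -0.10 over the bright ones.

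**Figure D2:**
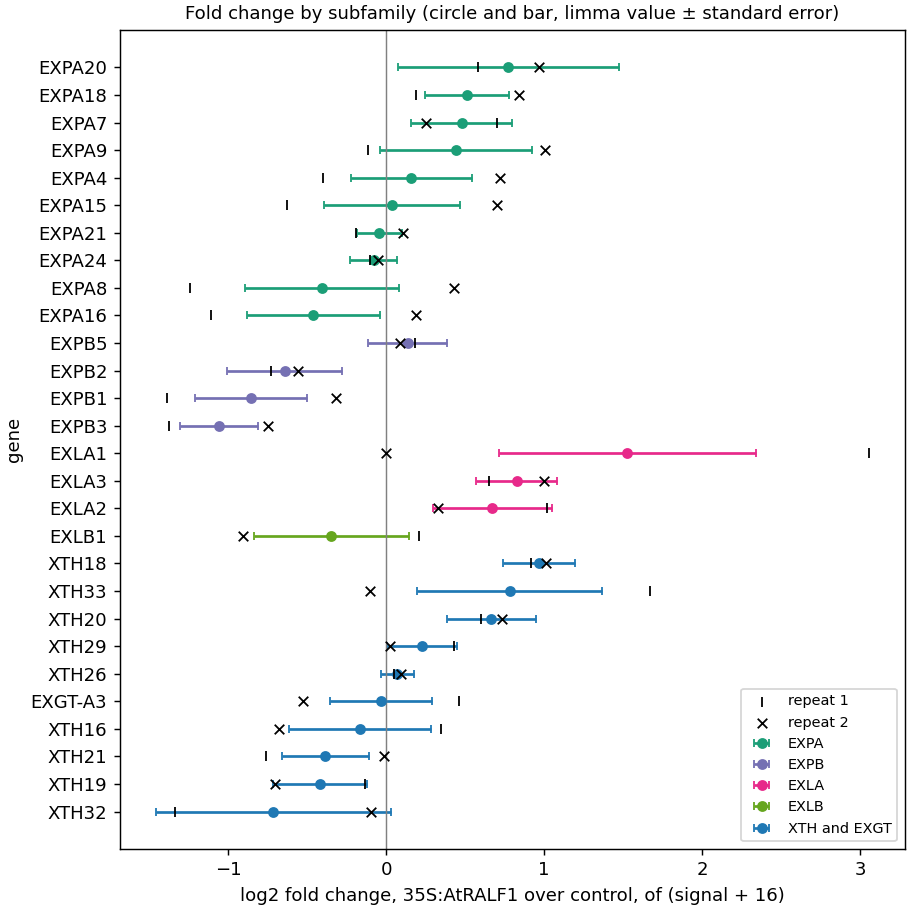
Log2 fold change of each gene, 35S:AtRALF1 over control, after 16 was added to the signals; circles and bars give the limma value ± its standard error, vertical ticks the ratio in repeat 1 and crosses that in repeat 2. EXPB3, EXPB1 and EXPB2 lie left of 0 in both repeats, and XTH18, XTH20, EXLA3, EXLA2, EXPA7 and EXPA18 right of 0 in both.

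EXPB3 (AT4G28250) had the lowest log2 fold change of the 28. The control arrays read 409.2 and 326.4 and those of 35S:AtRALF1 148.4 and 188.3. Both 35S:AtRALF1 values lay well under both control values, a mean of 168.3 ± 28.2 against 367.8 ± 58.5 (SD, n = 2 each). The control mean was 2.18 times the 35S:AtRALF1 mean, and the log2 fold change was -1.06 (standard error 0.25, adjusted p = 0.987 from limma). With any 1 array left out the log2 fold change stayed between -1.22 and -0.90.

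The other EXPB genes with a bright or dim signal lay on the same side. EXPB1 (AT2G20750) had control signals of 107.6 and 67.9 beside 31.2 and 51.3 in 35S:AtRALF1. The groups did not overlap, but the gap was wide in the first repeat and narrow in the second, with log2 ratios of -1.39 and -0.32. EXPB2 (AT1G65680) had control signals of 38.1 and 58.6 beside 16.7 and 34.7 in 35S:AtRALF1, which gave a log2 fold change of -0.64 (standard error 0.36). Its 35S:AtRALF1 values again lay under both control values, although 1 of them was at the level of background. The log2 fold change of EXPB2 moved to -0.33 when 35S:AtRALF1 replicate 1 was left out and to -0.41 when control replicate 2 was. That of EXPB1 was -0.85 (standard error 0.36), and it ranged from -1.13 without control replicate 2 to -0.57 without control replicate 1. EXPB5 (AT3G60570) stood apart from these 3. Its control signals of 24.8 and 23.3 beside 30.3 and 25.8 in 35S:AtRALF1 were all near background, and its log2 fold change was 0.14 (standard error 0.25). The offset sets the size of the EXPB values: with 1 in place of 16 the log2 fold changes of EXPB1 and EXPB2 were -1.08 and -0.94, and with 64 they were -0.52 and -0.33.

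All 3 EXLA genes had positive log2 fold changes, and the single EXLB gene a negative one. EXLA3 (AT3G45960) had signals of 15.3 and 13.4 in the control, under the level of background, and of 33.2 and 42.8 in 35S:AtRALF1. All 4 values were low, but both 35S:AtRALF1 values stood above both control values. With control signals this low, no ratio is given. The log2 fold change was 0.83 (standard error 0.26, adjusted p = 0.987 from limma), and it was 1.34 with an offset of 1 and 0.38 with 64. EXLA2 (AT4G38400), whose loss has been linked in Arabidopsis to resistance against a grey mould fungus, had control signals of 19.8 and 46.9 beside 56.5 and 63.0 in 35S:AtRALF1. The groups did not overlap, and the 2 control arrays differed more from each other than the second of them did from the 35S:AtRALF1 arrays. Its log2 fold change was 0.67 (standard error 0.38), moving to 0.27 when control replicate 1 was left out and to 1.08 when control replicate 2 was.

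EXLA1 (AT3G45970), the gene next to EXLA3 on the chromosome, had the highest log2 fold change of the 28, and it rested on 1 array. It had control signals of 57.0 and 110.2 beside 591.1 and 110.2 in 35S:AtRALF1. In the first repeat the 35S:AtRALF1 signal was 10.4 times that of the control, and in the second repeat the values were equal. The log2 fold change of 1.53 had a standard error of 0.82, the largest among the 28, and was 0.39 without 35S:AtRALF1 replicate 1 and 2.66 without 35S:AtRALF1 replicate 2. EXLB1 (AT4G17030) also differed between the 35S:AtRALF1 arrays, with 76.5 and 22.5 against control signals of 64.1 and 56.0. These lie on either side of the control values, and the log2 fold change of -0.35 (standard error 0.49) had its sign turned, to 0.28, without 35S:AtRALF1 replicate 2.

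Among the alpha-expansins, EXPA7 (AT1G12560) and EXPA18 (AT1G62980), genes of root hair cells that take part in hair formation, were the members whose groups did not overlap. EXPA7 had control signals of 62.2 and 107.1 beside 111.3 and 130.7 in 35S:AtRALF1. EXPA18 had control signals of 135.7 and 99.6 beside 156.8 and 190.8 in 35S:AtRALF1. The margin was small in both: the higher control array of EXPA7 lay just under the lower 35S:AtRALF1 array, and the ratio of the means was 1.43 for EXPA7 and 1.48 for EXPA18. The log2 fold changes were 0.48 (standard error 0.32) and 0.51 (standard error 0.27). EXPA7 differed more in the first repeat, with log2 ratios of 0.70 and 0.25, and EXPA18 more in the second, with 0.19 and 0.84. With any 1 array left out the log2 fold change lay between 0.15 and 0.80 for EXPA7 and between 0.32 and 0.71 for EXPA18. The lowest value came without control replicate 1 for EXPA7 and without control replicate 2 for EXPA18.

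Few markers of root hair cells other than these genes were named in the platform's table. Of a list of 14 that holds no expansin or XTH gene, 2 had a probe set named for them alone. These were the peroxidase genes AT1G30870 and AT4G26010, and limma called 0 of them, with adjusted p = 0.987 for each. Summed, they had control signals of 306.6 and 369.5 beside 666.2 and 736.9 in 35S:AtRALF1, with no overlap, and neither was near 0 in any array. Their log2 fold changes were 1.08 and 0.92. The other 12 markers on the list are not analysed here, and the part of root hair cells in the values of EXPA7 and EXPA18 was not tested. Of 9 markers of shoot mesophyll, 2 had a probe set named for them alone, RCA (the activase of Rubisco) and LHCB4.1 (a light-harvesting protein). Summed, they had control signals of 19987 and 15816 beside 17480 and 16176 in 35S:AtRALF1, and these sums overlapped. RCA alone was lower in both 35S:AtRALF1 arrays, at 8572 and 8916 beside 9926 and 8932 in the control, with a log2 ratio of -0.21 in the first repeat and -0.003 in the second, and LHCB4.1 overlapped. Their log2 fold changes were -0.11 and -0.05, with limma adjusted p = 0.997 for each.

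A contrast of the root hair pair with expansins of the shoot could not be made as intended. None of the 5 genes listed as shoot members (EXPA1, EXPA5, EXPA10, XTH9 and XTH24) had a probe set named for it alone. The 4 remaining bright alpha-expansins, EXPA4, EXPA8, EXPA9 and EXPA15, were used in their place, a choice made after their values had been seen. No tissue was assigned to them.

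These 4 genes shared a pattern that the root hair pair did not show. In the first repeat all 4 were lower in 35S:AtRALF1 than in the control, and in the second all 4 were higher. EXPA16 and EXPA21, both at the level of background, were also lower in the first repeat and higher in the second. Of all probe sets, 44.1% had opposite signs in the repeats, in either order. The share with this order alone is not given here. EXPA8 (AT2G40610) had control signals of 392.2 and 301.6 and 35S:AtRALF1 signals of 156.8 and 411.1. EXPA4 had control signals of 244.5 and 219.3 beside 181.4 and 371.9 in 35S:AtRALF1. EXPA15 had control signals of 238.0 and 206.0 beside 148.4 and 344.7 in 35S:AtRALF1. EXPA9 had control signals of 127.3 and 146.8 beside 116.1 and 310.8 in 35S:AtRALF1, with the first array close to the control and the second far above it. For all 4 bright genes the 35S:AtRALF1 arrays lay on either side of both control arrays. The signal of the second 35S:AtRALF1 array was 2.05 to 2.68 times that of the first in the 4 genes. In EXPA7 and EXPA18 that ratio was 1.17 and 1.22. The second 35S:AtRALF1 array was the higher one in all 10 EXPA genes, so here the pair differed in size and not in direction.

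The mean log2 ratio of the 4 genes was -0.60 in the first repeat and 0.71 in the second, whereas that of EXPA7 and EXPA18 was 0.45 and 0.55. The pair thus exceeded the other 4 by 1.04 on the log2 scale in the first repeat and lay below them by a log2 difference of -0.17 in the second. Over both repeats the difference was 0.44. Leaving out 35S:AtRALF1 replicate 1 gave -0.04, and leaving out 35S:AtRALF1 replicate 2 gave 0.91. It has no test. As averages over the repeats the log2 fold changes of the 4 genes were -0.41 for EXPA8, 0.04 for EXPA15, 0.16 for EXPA4 and 0.44 for EXPA9, with standard errors of 0.38 to 0.49, above 0.32 and 0.27, those of EXPA7 and EXPA18. Each sign turned with 1 array left out, to 0.25 for EXPA8 without 35S:AtRALF1 replicate 1, and to -0.33 for EXPA4, -0.53 for EXPA15 and -0.21 for EXPA9 without 35S:AtRALF1 replicate 2. Quantile normalization also turned the sign of EXPA15, to -0.0087.

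**Figure D3:**
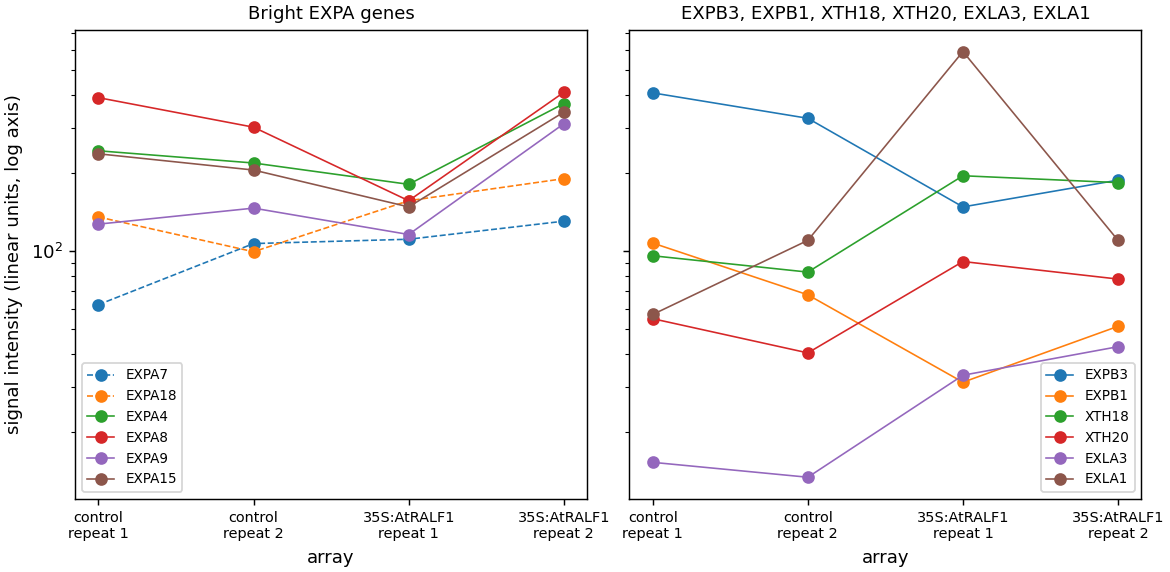
Signal intensity (log axis) in each array, joined by a line for each gene only to guide the eye. In the left panel EXPA4, EXPA8, EXPA9 and EXPA15 (solid lines) lie 2.05 to 2.68 times higher in the second 35S:AtRALF1 array than in the first, while EXPA7 and EXPA18 (dashed lines) differ by 1.17 and 1.22 times; the right panel shows members whose groups do not overlap and EXLA1, which peaks in 1 array.

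The 35S:AtRALF1 arrays also differed from each other outside the alpha-expansins. Over all 22746 probe sets the second 35S:AtRALF1 array was at least 1.5-fold higher than the first for 12.2% and at least 1.5-fold lower for 18%, on the scale of signal plus 16. The matching shares between the control arrays are not given here, so these values are not shown to be particular to 35S:AtRALF1. Of the 28 genes 8 were higher and 3 lower. Among bright members 5 of 16 were higher, the 4 alpha-expansins and XTH32, beside 14.1% of the 11478 probe sets that were bright by the same rule, and 3 were lower (XTH16, EXLA1 and EXLB1), beside 20.4%. The repeat as a term in limma, second against first, called 0 of the 28 genes and 0% of all probe sets. Its unadjusted p was under 0.05 for 2 of the 28 (XTH32 and EXPA20) and for 3042 of the 22746 probe sets. That is a smaller share of the 28 than of all probe sets. The lowest adjusted p of that term among the 28 was 0.21.

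The remaining EXPA genes lay at the level of background. EXPA20 had the highest log2 fold change of the EXPA genes, 0.77 (standard error 0.70), from control signals of 1.7 and 25.5 beside 10.5 and 65.1 in 35S:AtRALF1. These values differed more between repeats than between groups. EXPA16 had the lowest, -0.46 (standard error 0.42), from control signals of 56.1 and 20.1 beside 17.4 and 25.2 in 35S:AtRALF1, where the first control array alone stood out. EXPA21 and EXPA24, which belong to a cluster of EXPA genes on the chromosome, had log2 fold changes of -0.04 and -0.08, and neither signal can be told from background.

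Of the XTH genes, XTH18 (AT4G30280) had the highest log2 fold change, and its repeats lay close together. XTH17 to XTH20 are close relatives expressed mainly in roots, and XTH18 is known from elongating and differentiating root cells. It had control signals of 96.1 and 83.1 beside 195.8 and 184.2 in 35S:AtRALF1. The groups lay far apart and each was narrow, at 89.6 ± 9.19 and 190.0 ± 8.20 (SD, n = 2 each), a ratio of 2.12. The log2 fold change was 0.97 (standard error 0.23, adjusted p = 0.987 from limma), with 0.92 in the first repeat and 1.01 in the second.

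XTH20 (AT5G48070), which is known from the vascular tissue of the mature root, followed the same order at a lower signal. It had control signals of 54.9 and 40.5 beside 91.3 and 78.1 in 35S:AtRALF1, with no overlap. Its log2 fold change was 0.67 (standard error 0.28), with 0.60 and 0.74 in the repeats, and 0.41 with an offset of 64. XTH19 (AT4G30290), the direct neighbour of XTH18 on the chromosome and a gene of dividing and elongating root cells, lay on the other side. It had control signals of 53.2 and 61.3 beside 47.0 and 31.5 in 35S:AtRALF1, which gave a log2 fold change of -0.42 (standard error 0.30). The groups of XTH19 did not overlap either, but the first repeat differed little, with a log2 ratio of -0.13, and the log2 fold change was -0.22 without 35S:AtRALF1 replicate 2.

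XTH26, a gene of root hairs, and XTH21, a gene of root growth, are the other measured XTH genes listed for roots, and neither gave a usable signal. XTH26 had control signals of 1.9 and 2.0 beside 2.5 and 3.2 in 35S:AtRALF1, and XTH21 had control signals of 13.8 and 12.5 beside 1.6 and 12.3 in 35S:AtRALF1. Of 14 genes of both families listed for roots, 7 had a probe set named for them alone and 5 of these were bright: EXPA7, EXPA18, XTH18, XTH19 and XTH20. In each of the 5 the groups did not overlap and both repeats had the same sign, 4 higher and 1 lower in 35S:AtRALF1. Of the 11 bright members not on that list, 2 had groups that did not overlap, EXPB3 and EXPB1, both lower, and 7 had opposite signs in the repeats. Over all probe sets, bright or not, the groups did not overlap for 13.3% upward and 18.1% downward, and 44.1% had opposite signs. The same shares among bright probe sets alone are not given here. The list was drawn up with earlier results of these data known, so the contrast is a description.

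**Figure D4:**
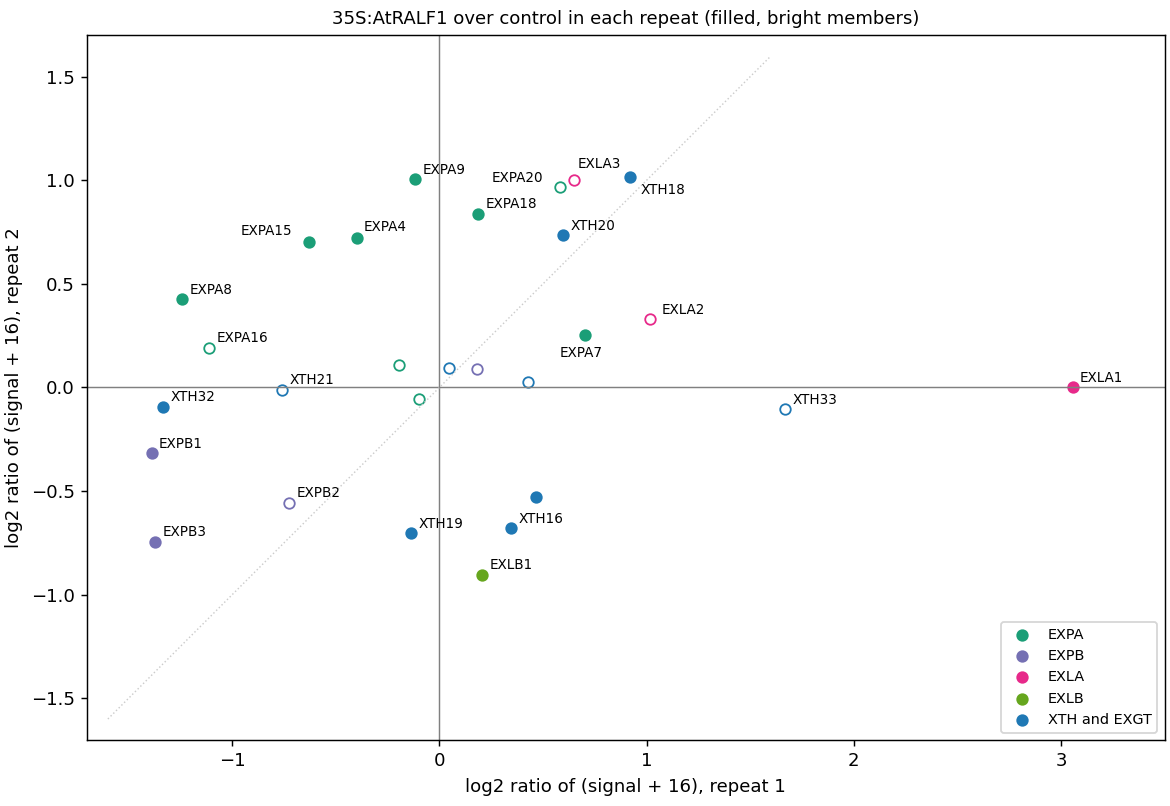
Log2 ratio of 35S:AtRALF1 over control in repeat 1 (horizontal) and repeat 2 (vertical), after 16 was added to the signals; filled circles are bright genes, open circles the others, and the dotted line marks equal values. XTH18 and XTH20 lie near that line, EXPA4, EXPA8, EXPA9 and EXPA15 lie upper left (opposite signs), and EXLA1 lies at 3.06 and 0.

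The brightest XTH genes varied widely between the arrays of a group. XTH32 (AT2G36870), of the branch of the family for which hydrolysis of xyloglucan has been described, had control signals of 959.0 and 1676 beside 370.8 and 1571 in 35S:AtRALF1. A single array, 35S:AtRALF1 replicate 1, lay far below the others, the second repeat was higher in both groups, and the log2 fold change of -0.71 (standard error 0.75) had its sign turned, to 0.30, without that array. EXGT-A3 (AT2G01850) had control signals of 781.2 and 1284 beside 1084 and 885.9 in 35S:AtRALF1, with the 35S:AtRALF1 values between the control values and a log2 fold change of -0.03 (standard error 0.32). XTH16 had control signals of 334.4 and 290.7 beside 429.2 and 175.6 in 35S:AtRALF1, on either side of the control, with -0.17 (standard error 0.45). XTH33, a dim gene whose protein is anchored at the plasma membrane, had control signals of 4.4 and 45.8 beside 48.9 and 41.5 in 35S:AtRALF1. The first control array alone was low, and the log2 fold change of 0.78 (standard error 0.58) was -0.02 without it. XTH29 stayed between 3.0 and 11.2 in all arrays.

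Bright and other members were split between both directions. Of 16 bright members 8 had a positive log2 fold change and 8 a negative one, with a median of 0.00, and of the other 12 there were 7 and 5, with a median of 0.10. They differed in how far the 35S:AtRALF1 arrays lay apart. The median size of the difference between these arrays was 0.74 on the log2 scale in bright members and 0.20 in the others, while between the control arrays it was 0.32 and 0.34. The offset of 16 compresses differences of low signals, so the values of the 12 cannot be read as better agreement. Groups did not overlap for 7 of the 16 bright members (4 higher, 3 lower) and 6 of the other 12 (4 higher, 2 lower). Over all probe sets, bright or not, the shares were 13.3% higher and 18.1% lower. Of the latter 6, EXLA3, EXPB5, XTH26 and XTH21 lay on average at the level of background.

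Few other genes of the same pathway were named in the platform's table. Of 16 genes for xyloglucan synthesis and trimming, 4 had a probe set named for them alone, and limma called 0 of them. All 4 were CSLC genes, the family whose member CSLC4 makes the glucan backbone of xyloglucan. CSLC5 had control signals of 173.5 and 185.4 beside 107.6 and 120.4 in 35S:AtRALF1, with no overlap and a log2 fold change of -0.59 (standard error 0.22). CSLC4, CSLC6 and CSLC12 had overlapping groups, with 0.32, -0.12 and 0.08. None of 11 plasma membrane proton pumps, which acidify the wall, and none of 10 cellulose synthases had a probe set named for it alone, so neither group was analysed here.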

How the data were processed

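Whole-seedling RNA was hybridized to Affymetrix arrays, and the authors deposited 1 linear signal intensity per probe set and array. They had already been brought to 1 scale, with a mean of 125.0 per array once the outer 2% at each end are removed, and were not scaled again. For the summarizing software and the background correction no source used here gives a name. Controls made up 64 of the 22810 probe sets and were removed. Values under 1 were set to 1, 16 was added and log2 taken. The groups were compared over 22746 probe sets with limma 3.58.1 in R 4.3.3 (lmFit, then eBayes with an intensity trend, two-sided, Benjamini-Hochberg adjustment over all probe sets, threshold 0.05, 2 residual and 2.66 prior degrees of freedom). The procedure was also run on simulated data with independent errors for each array. Real arrays of the same repeat deviated together, so no conclusion is drawn from that run. A second model had group and repeat as terms. The number of arrays limits the precision.

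Names came from the platform's table: 13513 probe sets had 1 gene, 503 several and 8730 none. All 28 genes matched a locus of RefSeq TAIR10.1. Values in every array are given for EXPA7, EXPA18, in each subfamily the genes with the highest and lowest log2 fold change and the brightest one, and genes at least 1.5-fold apart in the same direction in both repeats; other genes were added after their values were seen. The genes, the lists and these rules were chosen with earlier results of these data known. Alternatives were quantile normalization, cyclic loess, offsets of 1 and 64, a filter that kept the brightest 60%, no trend, the repeat as a block and each array left out. Subfamily medians, medians over bright genes and the contrast of EXPA7 and EXPA18 with other alpha-expansins were added after seeing the data.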

Additional observations from a re-analysis of the deposited data

How the results depend on the processing

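No gene of the 28 was called under any alternative, with adjusted p from limma of at least 0.632. Over the whole array 0 probe sets were called (458 higher and 522 lower at an unadjusted p under 0.05), 1 among the 60% with the highest signal and 1 with the replicate block, in neither case a member. At an unadjusted p under 0.05 the block gave 734 higher and 914 lower. Arrays of the same repeat deviated together across probe sets (correlation 0.39; probe sets are not independent), and with 2 pairs that does not show that the numbers pair the samples. Among all probe sets 43.9% had a positive log2 fold change, and 49.1% after quantile normalization, which moved the median from -0.042 to -0.005. Of 299 values of the 28 genes under the alternatives, 20 changed sign, in 14 genes, and 18 of the 20 came from leaving out an array; the cause was not tested. With quantile normalization EXPA15 had -0.0087 and EXPA21 0.011. Over the fits that lacked 1 array, the range of log2 fold change was -0.38 to 0.32 for EXGT-A3, -1.73 to 0.30 for XTH32, -0.77 to 0.44 for XTH16, -0.017 to 1.58 for XTH33, -0.017 to 0.47 for XTH29, -0.98 to 0.28 for EXLB1, -1.06 to 0.25 for EXPA8, -0.33 to 0.65 for EXPA4, -0.53 to 0.60 for EXPA15, -0.21 to 1.097 for EXPA9, -0.96 to 0.039 for EXPA16, -0.032 to 1.58 for EXPA20, -0.15 to 0.065 for EXPA21 and -0.19 to 0.034 for EXPA24. Genes that kept their sign could still move by over 1.5 times: XTH21 ranged from -0.73 to -0.042, EXPB5 from 0.062 to 0.21 and XTH26 from 0.044 to 0.097. The expansin median of 0.09 ranged from -0.14 without 35S:AtRALF1 replicate 2 to 0.32 without 35S:AtRALF1 replicate 1. Such a fit takes the spread of the single remaining array from that of the other group. Each gene had 1 probe set, so another probe set per gene could not be tried, and the planned contrast with shoot members could not be computed. Of the 28 genes 9 fell outside the 60% with the highest signal.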
